A study of Mus musculus with 4 samples.

Results

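Among single thymic regulatory T (Treg) cells profiled by droplet RNA sequencing, 1645 cells were chosen by 2 measured values, and their expression is described here against the other cells of the same library. Cells were selected on 0 unique molecular identifiers (UMIs) of Il2ra, which encodes the IL-2 receptor alpha chain CD25, and on a score of at least 1500 counts per 1000000 UMIs of the cell (CPM) summed over S1pr1, Ly6c1, Satb1, Pik3ip1, Gpr18 and Arl4c. They were 22.7% (exact Clopper-Pearson 95% interval 21.8 to 23.7%) of the 7231 cells that the authors also placed in a table named for the G1 phase, out of 8273 cells in all. The other 5586 cells of that table are the comparison, and these are called the other cells. They comprised 3470 Il2ra-0 cells under the score threshold, 209 cells with Il2ra at or over it and 1907 cells with Il2ra under it.

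The series compared thymic Treg cells of strains that differ at IL2 or IL15. The 4 samples were thymic CD4+CD8-Thy1.1+GFP+ cells of 3-week-old mice, 1 sample each of IL2 wt/wt, IL2 o/o, IL15 wt/wt and IL15 o/o. All 4 strains were on the B6 background and carried Foxp3-Thy1a, which puts a Thy1.1 reporter under the Treg factor Foxp3, and Rag2-Gfp, whose GFP marks recently formed T cells. The sources do not say how many animals made up a sample. Barcodes end in a suffix from 1 to 4, taken as libraries 1 to 4, and although the sample titles are numbered, no source says that a suffix is that number. The libraries are therefore unassigned, no genotype was compared, and cells of a library are not replicates, so no p-value is given.

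As background, S1pr1 is the receptor by which mature thymocytes follow sphingosine 1-phosphate out of the thymus, and the factor KLF2 drives S1pr1. CD69 holds S1PR1 off the cell surface, and its loss accompanies egress. CD25 completes the high-affinity IL-2 receptor, whose signal through STAT5 induces Socs2, Cish and Pim1 and supports Treg survival. SATB1 is a chromatin organiser that is abundant in immature thymocytes, and Pik3ip1 restrains PI3-kinase in resting T cells.

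Of the promoters of S1pr1, Klf2 and Il2ra, those of Klf2 and Il2ra were matched in the RefSeq table (GRCm38.p6, 250 bases before to 50 after the gene start). They are shown because Il2ra is part of the selection and KLF2 is the usual driver of S1pr1. Capitals mark the match to the KLF box CACCC or its complement GGGTG. The Klf2 window is chr8:72318812-72319111, plus strand, and the Il2ra window is chr2:11642542-11642841, plus strand.
Klf2: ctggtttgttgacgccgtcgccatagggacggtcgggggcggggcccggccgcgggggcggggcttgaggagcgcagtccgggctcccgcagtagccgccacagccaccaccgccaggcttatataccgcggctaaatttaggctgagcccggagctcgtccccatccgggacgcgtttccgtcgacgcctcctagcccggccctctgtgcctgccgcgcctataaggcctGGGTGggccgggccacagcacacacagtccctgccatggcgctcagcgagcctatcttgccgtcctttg
Il2ra: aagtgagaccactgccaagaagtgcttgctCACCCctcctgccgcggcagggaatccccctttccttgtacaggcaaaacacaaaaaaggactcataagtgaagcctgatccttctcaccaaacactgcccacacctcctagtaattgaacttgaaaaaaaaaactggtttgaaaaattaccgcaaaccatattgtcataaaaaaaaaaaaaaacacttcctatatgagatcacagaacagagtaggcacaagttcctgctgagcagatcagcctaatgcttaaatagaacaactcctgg
Both windows held 1 match to the KLF box, and 57.5% of all 32851 promoters held at least 1 on either strand. Neither held the forkhead box GTAAACA or the STAT site TTCNNNGAA, which 3.65% and 8.30% of promoters hold. A match is a description of letters and shows no binding.

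The selected cells were 281 of 1397 in library 1 (20.1%), 355 of 2107 in library 2 (16.8%), 622 of 1784 in library 3 (34.9%) and 387 of 1943 in library 4 (19.9%). Library 3 stood apart in both criteria. It had 0 Il2ra UMIs in 92.7% of its cells, against 61.6%, 61.2% and 67.6% in libraries 1, 2 and 4, and 36.5% of its cells reached the score, against 24.5%, 19.3% and 23.4%. Without library 3 the share was 18.8%. A further 203 cells outside the G1 table met both criteria and are not among the 1645. Over all cells counted, 27 barcodes occurred under more than 1 suffix, and 6 selected cells carried such a barcode.

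The selected cells were shallow, and the selection itself leans that way, because few UMIs favour 0 Il2ra and let a few score UMIs reach the threshold. Their median depth was 2507, 2541, 2230.5 and 2333 UMIs in libraries 1 to 4, against 4266.5, 3967, 2815 and 3312 in the other cells. A cell with less RNA and a cell sampled less deeply cannot be told apart here. The main results below are therefore also given at matched depth, meaning that selected and other cells were compared within 5 depth strata of each library. As a further handle, all cells were thinned to 1886 UMIs, which left out 723 cells, and reselected by the same rule. That selected 26.2% of the remaining 6508 cells, 36.9% of them in library 3 and 20.5% to 25% in the others.

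The threshold cut a continuous score, as the histogram of scores shows. Selected cells scored 1501.5 to 8854.78 CPM with a median of 2118.64, and the highest Il2ra-0 cell left out scored 1499.25. Near the threshold lay 253 selected cells (under 1650) and 253 Il2ra-0 cells left out (1350 and over). A selected cell held 2 to 23 score UMIs, with a median of 5. Satb1 gave 49.5% of these UMIs, S1pr1 19.3%, Pik3ip1 17.0%, Arl4c 7.01%, Gpr18 3.96% and Ly6c1 3.23%. As levels, which the selection set, S1pr1 stood at 446 against 149 CPM, Satb1 at 1143 against 277, Pik3ip1 at 394 against 96.3 and Ly6c1 at 74.8 against 8.30, in selected and other cells. Ly6c1 was found in 10.1% of selected cells, and 638 of the 1645 had no S1pr1 UMI.

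**Figure D1:**
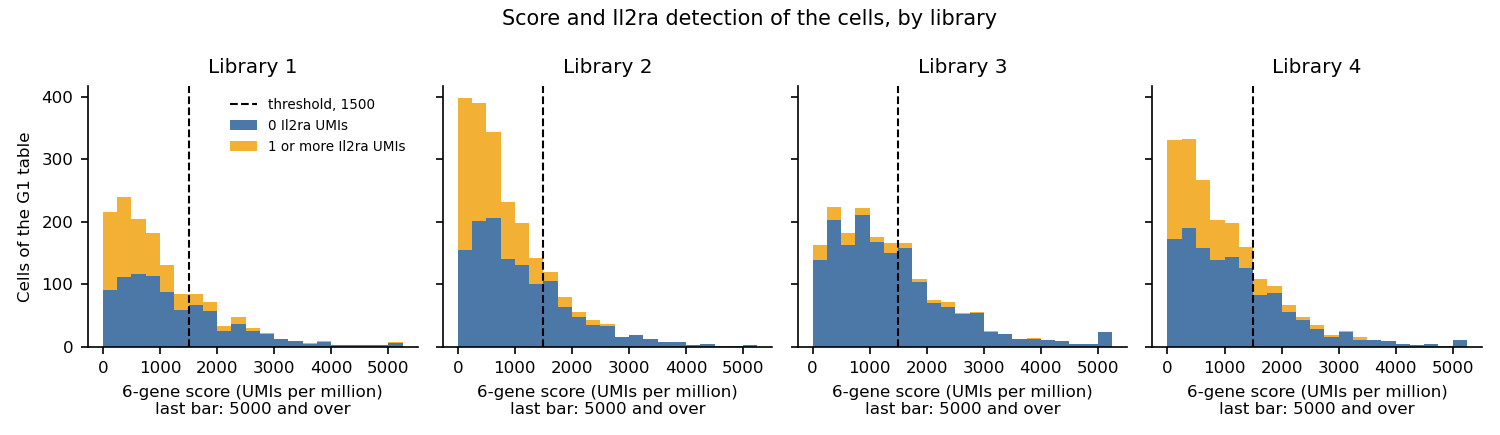
Histogram of the 6-gene score (x axis, CPM, bars 250 wide) by number of cells (y axis) in each library, with cells holding 0 Il2ra UMIs in blue and cells with Il2ra stacked in yellow. The selected cells are the blue bars right of the dashed threshold of 1500, which cuts a falling slope rather than a gap, and library 3 has the least yellow.

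Il2ra and the score were both used to choose the cells, so how they relate is given as a description. Il2ra was lower in cells at or over the score than in those under it, 97.6, 76.5, 24.2 and 90.1 CPM against 208, 201, 36.3 and 183 in libraries 1 to 4, a ratio of 0.461. It was 0.495 at matched depth and 0.582 after thinning. At least 1 Il2ra UMI was found in 11.3% of cells at or over the score (median 2430.5 UMIs) and 35.5% of those under it (3568 UMIs). In thinned cells the shares were 12.4% and 22.5%. In library 3 they were 4.87% and 5.07% after thinning, which their counting intervals do not separate. Of the 83 G1-table cells rich in double-positive thymocyte transcripts (below, median 2307 UMIs), 22.9% also had an Il2ra UMI. What part of the Il2ra UMIs in any of these groups is expression of the cell itself was not tested.

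A gene was called when it had at least 200 UMIs over both sides, differed at least 1.5-fold, had an approximate 95% counting interval clear of no change and pointed the same way in all 4 libraries. The 7 genes of the selection were left out. Of 7606 genes, 459 were higher in the selected cells (6.03%) and 659 lower (8.66%), and the median log2 ratio over all of them was 0.06. A count of genes in a list is read against these percentages, and a list's median against that median. Scaling moves this balance: with totals without mitochondrial and ribosomal protein genes 321 were higher and 765 lower, and with median-of-ratios factors 338 and 751. Without library 3, 634 genes were higher and 736 lower. Depth moves the counts more. At matched depth 71 genes were higher (0.933%) and 271 lower (3.56%), with a median of 0.00 over all genes, and 68 and 258 of them were among the first calls. Thinned cells gave 106 of 5601 (1.89%) and 239 (4.27%). The lower side of the profile thus kept 39.2% of its calls at matched depth and the higher side 14.8%.

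A minority of the selected cells carried transcripts of CD4+CD8+ double-positive thymocytes, the stage before lineage choice. Of the selected cells 44 (2.67%) held at least 3 UMIs over a 9-gene list of that stage (among them Cd8a, Cd8b1, Rag1, Rag2, Dntt and Ptcra), against 39 of the other cells (0.698%). By library these were 6, 8, 11 and 19 selected cells, and 40 of them held 7 or more such UMIs. No Foxp3 UMI was among their 89983 UMIs, which allows up to 33.3 CPM (3 counts), above the Foxp3 level of the selected cells as a whole. The sort was for CD8- cells. Genes of this stage were at the top of the ranking. Cd8a, which encodes the CD8 alpha chain, stood at 39.2, 38.6, 31.2 and 80.1 CPM against 7.72, 7.36, 7.51 and 8.13, a log2 ratio of 2.57. All 3 tested genes of the list, Cd8a, Cd8b1 and Dntt, were called higher. Their UMIs are among those counted, so a fall in their ratios without such cells is built in. Without cells holding 3 or more of these UMIs on either side the Cd8a ratio was -0.22, and 437 genes were called higher (5.78%) and 667 lower (8.82%). Ly6d went from 1.40 to -0.16 and the Dntt ratio, for the enzyme that adds bases at receptor joints, from 1.84 to 0.16. Tcf7, Cd40lg and Ikzf2, described below, had ratios of 0.84, 1.31 and -0.91 without these cells.

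The label of egress-ready cells was checked against egress genes that the selection did not use, with a mixed result. Klf2, Cd69, Ccr7 and Itgb7 were not called, while 4 of the 12 genes on the egress and homing list were. Klf2 stood at 1431, 1775, 1480 and 1436 CPM in the selected cells and 1180, 1346, 1225 and 1222 in the others, a log2 ratio of 0.30 (0.26 to 0.34). The selected cells were above the others in each library, but by less than 1.5-fold, and at matched depth the ratio was -0.09 (-0.13 to -0.05). Cd69 was not lower, at 199, 166, 220 and 214 against 167, 160, 234 and 175 CPM (0.09, -0.01 to 0.20, and -0.05 at matched depth). Ccr7, the receptor that draws mature thymocytes to the medulla, and Itgb7 had ratios of 0.22 and 0.24, and of 0.05 and 0.07 at matched depth. The cells are hence called by how they were selected, and not by the egress name.

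In the list of 12 egress and homing genes 4 were called higher (Itga4, Rasgrp2, Emb and Cxcr4) and none lower, with a median log2 ratio of 0.35. At matched depth 2 were, Emb and Cxcr4, with a median of 0.07. Emb, an adhesion glycoprotein, stood at 195, 184, 164 and 156 CPM against 113, 106, 109 and 94.8, and its call held at matched depth (0.71 and 0.66). Cxcr4, the receptor that keeps thymocytes in the cortex, was also higher at matched depth (1.17 and 0.64). Cxcr4 had 67 UMIs in the selected cells, and its ranges over the libraries overlapped. In thinned cells Emb was called (0.69) and Cxcr4 was not (1.13). Without cells rich in cell cycle transcripts (below) neither was called (0.55 and 1.06). Itga4, an integrin alpha chain, and Rasgrp2, which activates integrins through Rap1, had ratios of 0.89 and 0.70, and of 0.35 and 0.29 at matched depth, where neither was called.

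Ccr9, the receptor for the thymic chemokine CCL25 that developing thymocytes carry, had the largest ratio among the called homing and chemokine receptors. It reached 92.8, 121, 109 and 129 CPM in the selected cells and 34.8, 28.6, 51.8 and 36.3 in the others. The ranges did not overlap, and the log2 ratio of 1.55 (1.38 to 1.71) was 0.90 at matched depth, 1.26 in thinned cells and 1.17 without the cells rich in double-positive transcripts. Of 5 tested chemokine and positioning receptors Ccr9 and Cxcr4 were called higher and none lower, with a median of 0.11 that turned negative under some alternatives, to -0.14 in thinned cells. Of the 9 tested genes on the immature thymocyte list 4 were called higher (Ccr9, Cd8a, Cd8b1 and Dntt) and none lower, and 4 again at matched depth. Without the double-positive-rich cells, which are picked out partly by Cd8a, Cd8b1 and Dntt themselves, 1 of 7 was called higher, Ccr9, and 1 lower.

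Many Treg genes were lower, while no difference in Foxp3 was detectable. Of 16 tested genes on the Treg identity list 9 were called lower and none higher, with a median log2 ratio of -0.82. At matched depth 10 were lower (median -0.64). Ikzf2, which encodes the Treg factor Helios (chromosome 1, 69531214 to 69687245, GRCm38), stood at 448, 547, 621 and 521 CPM against 990, 965, 1132 and 1023. The selected cells lay below the others in each library with no overlap, a log2 ratio of -0.93 (-0.99 to -0.87), and -0.81 at matched depth. Foxp3 itself was sparse, 67 UMIs in the selected cells, at 18.3, 14.6, 18.3 and 12.8 against 15.1, 13.7, 11.8 and 13.8 CPM. Its log2 ratio of 0.26 had an interval of -0.13 to 0.64, which holds no change.

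The TNF receptors that thymic Treg precursors use for costimulation were lower with Ikzf2. Tnfrsf4 (OX40) stood at 502, 639.5, 479 and 545 CPM against 1291, 1460, 929 and 1329.5 (log2 ratio -1.19, and -1.02 at matched depth). Tnfrsf9 (4-1BB) stood at 105, 136, 137 and 109 against 302, 336, 323 and 301 (-1.36 and -1.05). Neither pair of ranges overlapped. Lrrc32, which presents latent TGF-beta, and Penk, the enkephalin precursor, had ratios of -1.44 and -1.73 and were called at matched depth as well. Ctla4, the inhibitory receptor, had a ratio of -0.47 that stayed under 1.5-fold. Gpr83, an orphan receptor of Treg cells, had -0.39, and was called lower at matched depth (-0.63).

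The effector Treg list was lower too, with 9 of 11 tested genes called lower, 1 higher (the costimulator Icos) and a median of -1.28. At matched depth 4 were lower and none higher. Ccr6, a chemokine receptor of activated Treg cells, had a ratio of -2.39, and of -1.47 at matched depth. The decoy receptor Il1r2 gave 3 UMIs in the selected cells against 208, and was not called at matched depth (-1.45, -3.19 to 0.29). Il10, Klrg1, Cxcr3, Gzmb and Tbx21 had 0 UMIs in the selected cells, which allows up to 0.726 CPM (3 counts over all of them). All 5 had under 200 UMIs over both sides and were not tested, so no difference from the other cells is read from these zeros.

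**Figure D2:**
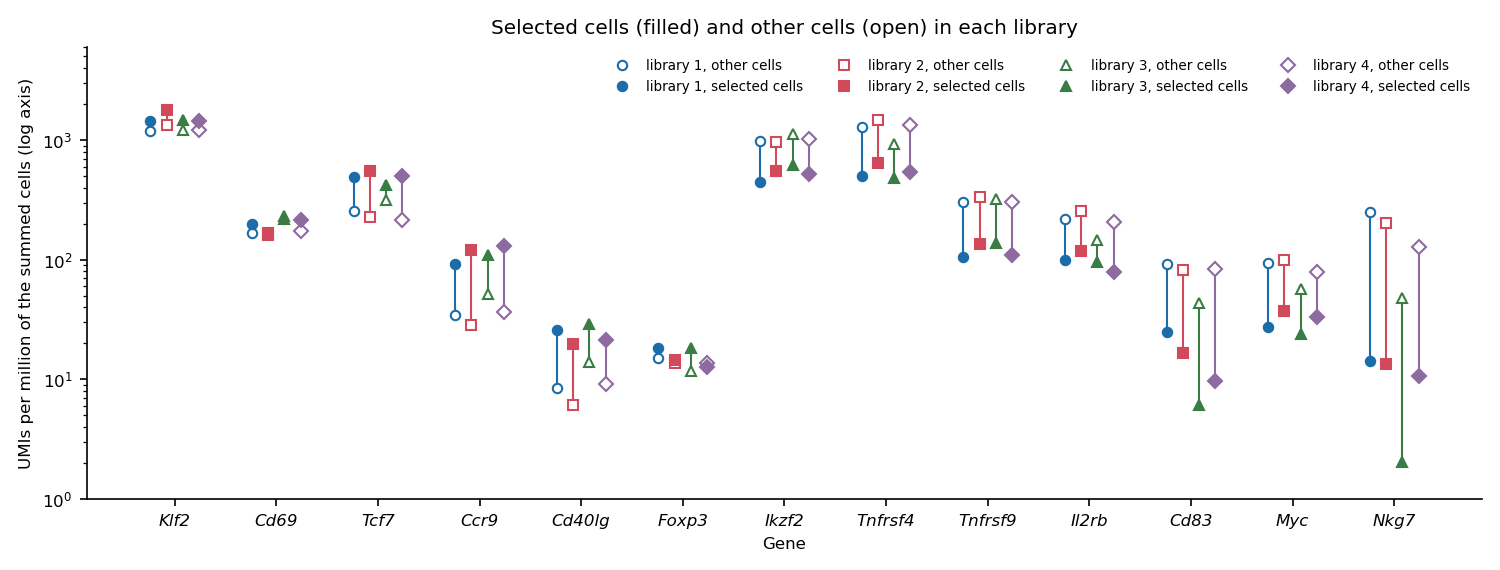
Level of 13 genes (y axis, CPM of the summed cells, log axis) in the selected cells (filled) and the other cells (open) of each library, joined by a line, before any adjustment for depth. Ikzf2, Tnfrsf4, Tnfrsf9, Il2rb, Cd83, Myc and Nkg7 were lower and Tcf7, Ccr9 and Cd40lg higher in the selected cells of each library, while Cd69 and Foxp3 overlapped.

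Among receptor chains for IL-2 and IL-15, Il2rb, the signalling beta chain, was at 99.3, 118, 95.03 and 79.1 CPM against 219, 254, 146 and 207. The log2 ratio was -1.05, and -0.84 at matched depth, with no overlap between the groups. Il2rg, the common gamma chain, was not lower (0.29, and 0.00 at matched depth). Il7r had a ratio of -0.04 (-0.26 to 0.18), and of -0.13 at matched depth. Il2 stood at 44.4, 39.6, 44.8 and 44.9 against 35.5, 28.1, 43.99 and 36.4 CPM (0.25, 0.02 to 0.48), and Il15 had 0 UMIs in the selected cells and 14 in the others. Of 16 tested cytokine receptor and JAK-STAT genes 2 were called higher (Il6ra and Il6st) and 1 lower, and at matched depth none and 1.

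The IL-2 and STAT5 response list was split, with 2 of 15 tested genes called higher (Socs3 and Ccnd3), 4 lower (Socs2, Cish, Il2rb and Pim1) and a median of -0.09. At matched depth 5 were lower and none higher (median -0.42). Socs2, a feedback inhibitor that STAT5 induces, stood at 11.8, 9.39, 0.679 and 8.55 CPM against 38.4, 53.1, 1.07 and 48.3 (-2.22, -2.77 to -1.67, and -2.13 at matched depth). In library 3 it was near 0 on both sides. Cish had a ratio of -0.91, and of -0.92 at matched depth. Bcl2, the survival gene downstream of this pathway, had 0.31, and -0.12 at matched depth.

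Splitting the cells by both criteria separated these genes. Against Il2ra-0 cells under the score alone, 195 of 6435 genes were called higher in the selected cells (3.03%) and 340 lower (5.28%). Of these, 187 and 334 were also called against all other cells, a comparison that shares the selected cells and most of the others. For Ikzf2 the differences depended on the pair compared. The selected cells were lower than Il2ra-0 cells under the score (log2 ratio -0.96, and -0.80 at matched depth), while under the score Il2ra-0 and Il2ra-detected cells differed by 0.08. At or over the score the ratio of selected to Il2ra-detected cells was -0.68 (-0.82 to -0.54). Among Il2ra-detected cells, those at or over the score against those under it gave -0.27, and 0.23 in library 3. Cells with Il2ra at or over the score had 788, 665, 1257 and 796 CPM, between the selected cells and those under the score in libraries 1, 2 and 4, and above both in library 3. Nkg7 and Tcf7 differed with both: the selected cells against Il2ra-0 cells under the score gave -3.50 and 0.72, and Il2ra-0 against Il2ra-detected cells under the score gave -0.85 and 0.64. At matched depth these were -2.07 and 0.52, and -0.40 and 0.56.

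Socs2 and Pim1 differed more with Il2ra. Under the score, Il2ra-0 against Il2ra-detected cells gave a log2 ratio of -2.15 for Socs2 and -0.97 for the kinase Pim1. Against Il2ra-0 cells under the score the selected cells gave -0.77 and -0.19. At matched depth the first pair was -2.26 and -1.02 and the second -0.72 and -0.21. At or over the score, Il2ra-0 against Il2ra-detected cells gave -2.50 and -1.16. Klf2 and Gpr83 were highest in the 209 cells with Il2ra at or over the score, at 1836, 2264, 1693 and 1802 CPM for Klf2 and 308, 697.5, 117 and 357 for Gpr83. The log2 ratio of the selected cells to these was -0.32 (-0.41 to -0.23) for Klf2 and -1.53 (-1.75 to -1.31) for Gpr83. At matched depth these ratios were -0.41 and -1.39. That group held 30 cells in library 3 and 51 to 67 in the others, and its median depth was 2641 to 3223 UMIs.

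**Figure D3:**
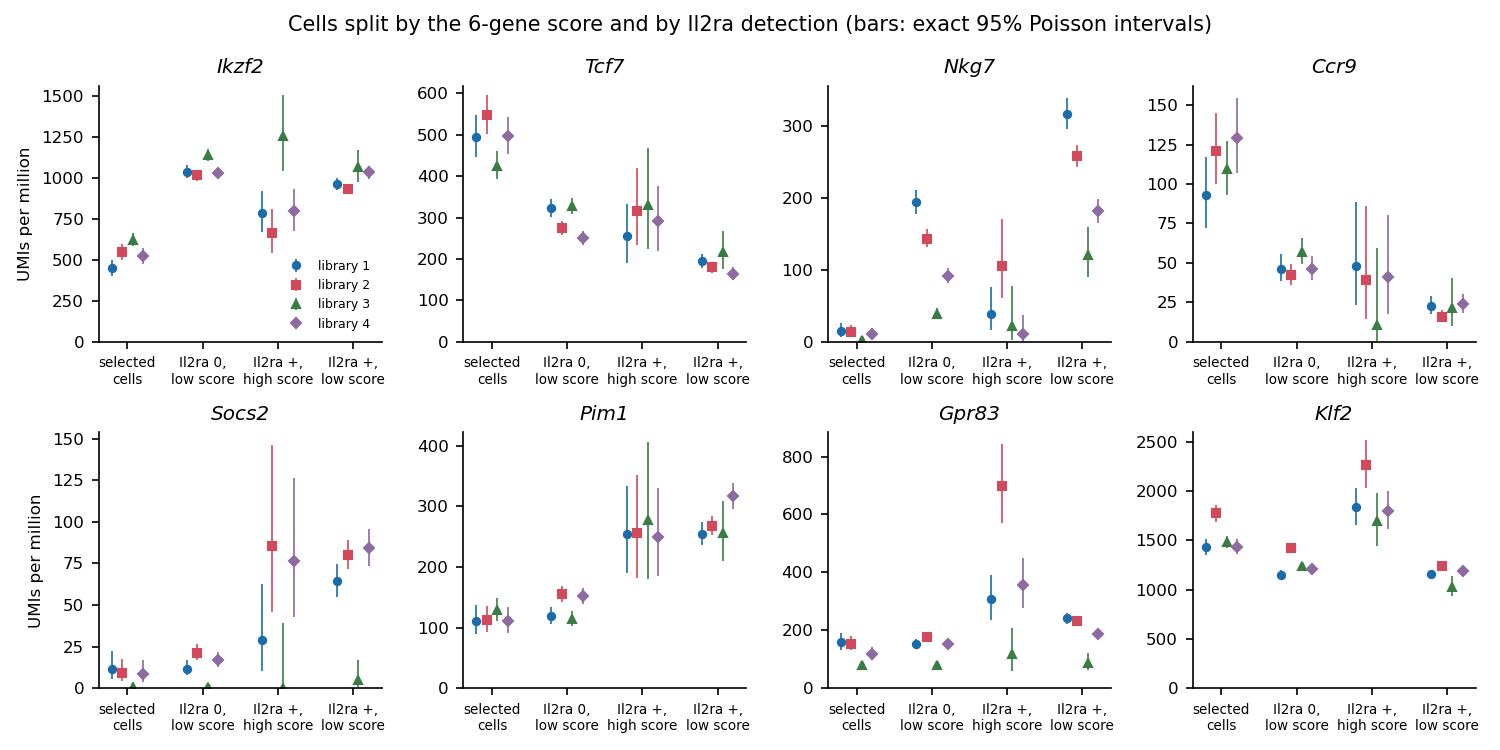
Level of 8 genes (y axis, CPM, each with its exact 95% Poisson interval for counting error only) in the selected cells and in the 3 other combinations of score and Il2ra, for each library. Ikzf2 is lowest in the selected cells, Socs2 and Pim1 are low in both Il2ra-0 groups, and Klf2 is highest in the cells with Il2ra at or over the score.

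Some factors of T cell maturation and of the naive state were higher. Of 14 tested maturation factors 5 were called higher (Tcf7, Lef1, Id2, Zbtb7b and Ikzf1) and none lower, with a median of 0.56, and at matched depth 2 were (median 0.22). Tcf7, which encodes the naive and progenitor T cell factor TCF-1 (chromosome 11, 52252371 to 52283014, GRCm38), stood at 495, 547, 426 and 497 CPM against 257, 227, 315 and 214. The groups did not overlap, and the log2 ratio of 0.92 was 0.66 at matched depth and 0.74 in thinned cells. Lef1, its relative, and Zbtb7b, the CD4 lineage factor ThPOK, had 0.74 and 0.78 and were not called at matched depth (0.41 and 0.39). Id2, which restrains E proteins, was called both ways (0.77 and 0.61).

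Markers of conventional naive CD4 cells, which the sort could hold only past the Thy1.1 gate, were higher in part. Their list shares Tcf7 and Lef1 with the maturation factors and Ccr9 with the immature thymocyte list, so it is not a separate result. Of the 10 genes on that list 5 were called higher (Tcf7, Lef1, Ccr9, Cd40lg and Tdrp), 1 lower (Dapl1), and their median was 0.57. At matched depth 4 were higher (median 0.42). Their summed level, with Tcf7 and Lef1 in it, was 1551 to 1865 CPM in the selected cells and 997 to 1158 in the others. Cd40lg, the helper ligand for B cells that Treg cells carry at low levels, stood at 26.1, 19.8, 29.2 and 21.4 against 8.44, 6.13, 13.9 and 9.11 CPM (1.31, and 1.01 at matched depth). The part that such cells have in the lower Treg genes was not tested. The long noncoding gene A530021J07Rik led the ranking once genes of double-positive cells are set aside, at 45.7, 68.8, 43.4 and 53.4 against 9.51, 11.3, 17.7 and 10.9 CPM (2.02, and 1.57 at matched depth). Rcn3, P2ry10b, Itgb3 and Tent5c were also called both ways. None of them was called in thinned cells, where their ratios were 0.95 to 1.29. P2ry10b and Itgb3 were also not called without cells rich in cell cycle transcripts (below). Tmie, another leading gene, had 1.46 and was not called at matched depth (0.57).

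Some genes of the resting state were higher, but these calls were lost at matched depth. Of 17 tested quiescence and FOXO-linked genes 9 were called higher and none lower (median 0.59). None was called at matched depth, where the median was 0.16, and 2 were in thinned cells. Txnip, a brake on glucose uptake, stood at 325, 233, 296 and 198 CPM against 124, 102, 169 and 81.0 (1.10, and 0.43 at matched depth). Foxo1 itself had 0.59, and 0.25 at matched depth. The GIMAP GTPases of lymphocyte survival behaved likewise, with 5 of 8 called higher (median 0.61) and none at matched depth (0.20). Gimap4 stood at 818, 822, 1089 and 937 CPM against 395, 436, 766 and 521.

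Late maturation genes were called higher in 6 of 13 tested cases and lower in 1, the integrin gene Itgae, with a median of 0.58. At matched depth 1 of these was higher, Ly6a, and none lower. Interferon-response genes were called higher in 8 of 20 (median 0.50) and in none at matched depth (0.16). Ifit3 led them at 95.4, 89.7, 93.0 and 79.1 CPM against 43.1, 41.1, 53.7 and 57.1. Of 15 MHC class I genes none was called either way (median 0.12, and -0.037 at matched depth). Of 15 T cell receptor complex genes none was called either, but their median was 0.43, positive in each library, and 0.19 at matched depth. Mitochondrial transcripts did not differ by 1.5-fold either (median -0.11). At matched depth their median was -0.046, and 1 of 13 was called lower. That was mt-Nd6 (-0.61, -1.21 to -0.02), with 28 UMIs in the selected cells.

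Many growth and division genes were lower, and part of this difference held at matched depth. Of 20 MYC targets and ribosome biogenesis genes 18 were called lower and none higher (median -1.12), and 12 at matched depth (-0.67). Myc stood at 27.4, 37.6, 23.8 and 33.1 CPM against 94.8, 99.3, 56.6 and 78.4, with no overlap (-1.40, and -1.08 at matched depth). Srm, the spermidine synthase that MYC drives, had -2.25 and -1.42. Of 11 glycolysis genes 4 were lower (median -0.41), and 1 at matched depth, Tpi1. Of 10 cholesterol synthesis genes 6 were lower (median -0.64), and 4 at matched depth. Sqle, which oxidises squalene, gave 2 UMIs in the selected cells and 221 in the others.

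The S phase list was lower in 17 of 17 tested genes (median -1.72), although the table is named for G1. Cells with at least 1000 CPM over the S, G2 and M phase lists were 11.98% of the selected cells and 20.8% of the others. Without these cells 210 of 6782 genes were called higher (3.1%) and 299 lower (4.41%). Of the MYC targets 13 of 20 were then lower, and of the Treg genes 9 of 16. The S phase genes themselves served to remove these cells, so their drop, to 1 lower of 9 still tested, was built in and is not a result. At matched depth 6 of 17 S phase genes were lower, and 0 of 7 G2 and M phase genes, against 5 at first. Mki67, the mark of cycling cells, went from -1.48 to 0.66 at matched depth on 10 UMIs in the selected cells.

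Genes induced by antigen receptor signals were lower in 8 of 22 tested cases and higher in none (median -0.34), and again 8 at matched depth (-0.50). Cd83, an activation marker, stood at 24.8, 16.7, 6.11 and 9.61 CPM against 92.8, 82.4, 43.7 and 83.8 (-2.44, and -1.95 at matched depth). Nr4a2 had -2.28, and -1.74 at matched depth, while Nr4a1, the usual readout of receptor strength, had -0.28, under the 1.5-fold required, and its ranges overlapped. Of 11 BCL2 family genes 4 were lower (Bcl2l1, Bcl2a1b, Bcl2a1d and Bid) and none higher. At matched depth 3 were, without Bcl2a1b (-0.49). Bcl2l1, which encodes BCL-XL, had -1.68, and -1.01 at matched depth.

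The lowest genes were those of cytotoxic and innate-like lymphocytes and a muscle actin. Nkg7, a granule protein, stood at 14.4, 13.6, 2.04 and 10.7 CPM against 249, 202, 48.0 and 128 (-3.93, and -2.19 at matched depth). The chemokine gene Xcl1 gave 1 UMI in the selected cells and 430 in the others, and Ccl5 25 and 1123. The Xcl1 UMIs lay in 121 of the other cells, and 1 cell held 18.6% of all of them. Both genes were called at matched depth (-3.55 and -1.56). In thinned cells Ccl5 was called (-2.06) and Xcl1 was not (-3.66). Actg2, the smooth muscle actin, gave 4 against 1243 UMIs, which lay in 411 of the other cells. A 12-gene list for NK, gamma delta T and NKT cells summed to 9 to 27 CPM in the selected cells and 84 to 329 in the others, and Klrd1, Klrb1c, Ncr1, Zbtb16, Tyrobp and Klrk1 were at 0 in the selected cells. This list includes Nkg7, Xcl1 and Ccl5, and the part of such cells in the other results was not tested. The B cell list summed to 5 to 17 CPM and the epithelial list to 13 to 22, with Ms4a1, Pax5, Krt5, Krt14, Foxn1 and Cldn3 at 0. The myeloid list summed to 140 to 212 CPM, against 191 to 248, with Itgax, Csf1r, S100a8 and S100a9 at 0. No gene of the erythroid list reached 200 UMIs, nor did any gene given at 0 in this paragraph, so these zeros were not tested against the other cells.

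**Figure D4:**
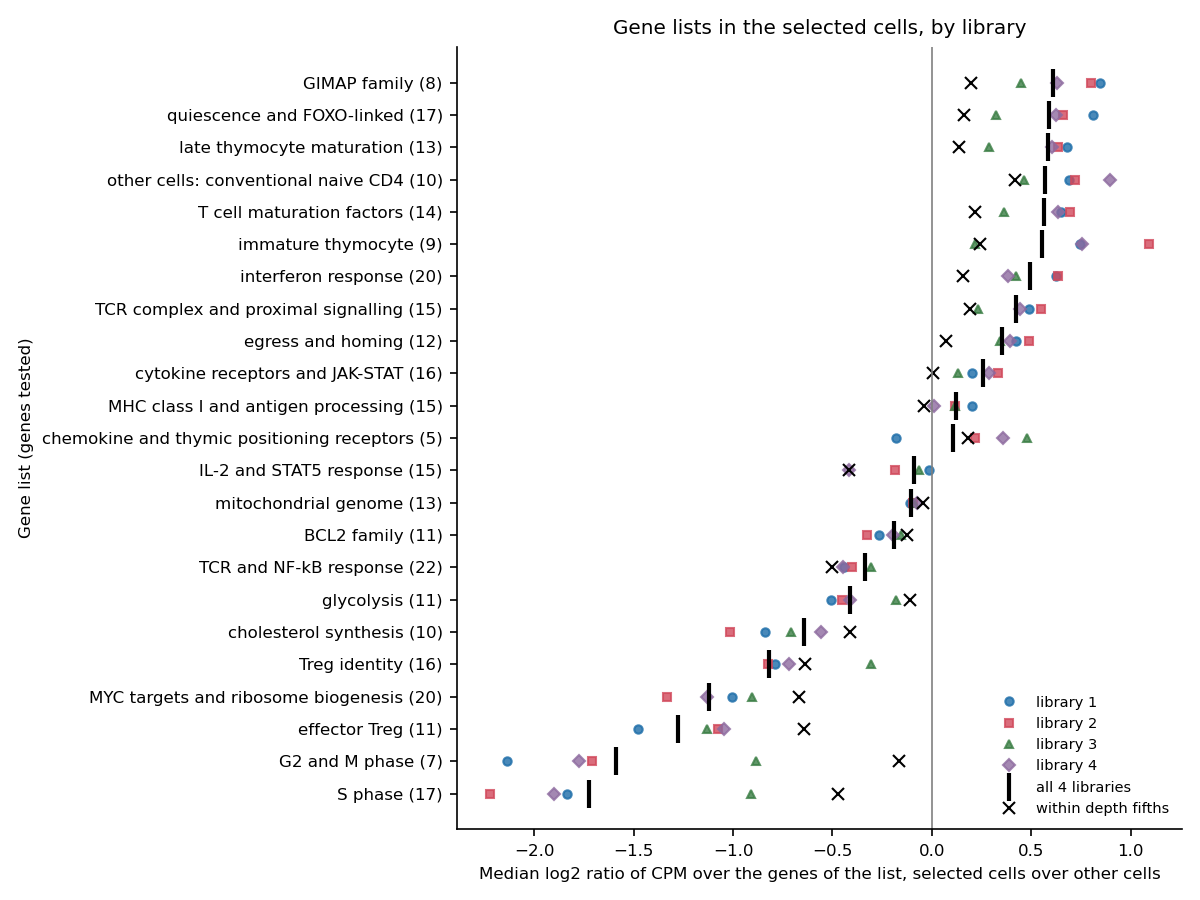
Median log2 ratio of CPM (x axis), selected cells over other cells, for each gene list with at least 4 tested genes (y axis, number tested in brackets), by library, over all libraries (bar) and at matched depth (cross). The crosses of GIMAP, quiescence, late maturation and interferon lists lie between 0.14 and 0.20, while those of the Treg identity, MYC and effector Treg lists stay below -0.6.

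Within Il2ra-0 cells the levels changed along the score, which the plot of score bands shows. The bands are wide and not matched for depth, so whether there is a step at the threshold was not tested. Ikzf2 stood at 1173, 1109, 1377 and 1262 CPM in the 352 cells with a score of 0, at 776, 787, 810 and 781 just under the threshold (1000 to 1500) and at 536, 651, 731 and 590 just over it (1500 to 2000). In the 302 cells at 3000 and over it was 396, 289, 463 and 272. Tcf7 went from 224 to 293 CPM at a score of 0 to 498 to 782 in the top band. Cd8b1 was at 15.9 to 52.05 CPM just under the threshold and at 146 to 449 in the top band, where cells were shallowest (median 1972 UMIs).

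**Figure D5:**
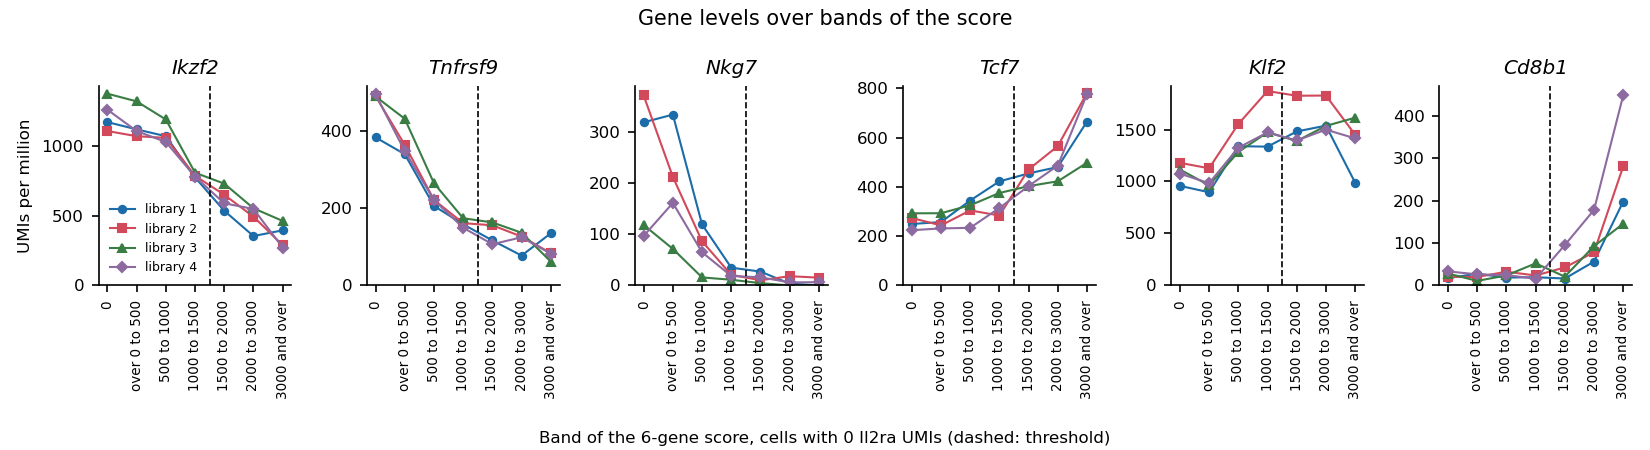
Level of 6 genes (y axis, CPM) in each library over bands of the 6-gene score (x axis) in cells with 0 Il2ra UMIs, with the threshold dashed. Ikzf2, Tnfrsf9 and Nkg7 are lower in higher bands and Tcf7 is higher, Klf2 levels off, and Cd8b1 is high only in the top bands, above all in library 4.

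S1pr1 was used in the selection, so a cell selected without it had to hold more of the other score genes, and a split by S1pr1 is given as a description. The 1007 cells with an S1pr1 UMI (median 2475 UMIs) had more Klf2 than the 638 without (2252 UMIs), 1705 against 1223 CPM, a log2 ratio of 0.46 (0.38 to 0.54) that was 0.51 at matched depth and positive in each library. Itgb7 had a ratio of 0.46. Ccr9 had a ratio of -1.56, and Cd8a one of -3.94, from 6.47 against 114 CPM. The 44 cells rich in double-positive transcripts, 3 of which had S1pr1, were picked out partly by Cd8a. Without them the ratios were 0.39 for Klf2, -0.89 for Ccr9 and, partly by construction, 0.23 (-0.97 to 1.43) for Cd8a. Cd69 differed by -0.31 (-0.51 to -0.11) with and without them, but was near 0 in library 4.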

How the data were processed

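RNA of single sorted cells was captured with a droplet 3′ kit (Chromium v2), per the labels' protocols. The deposited count table holds whole UMI counts for 27998 genes in 8273 cells, and the submitters' processing notes name CASAVA 2.20, Cell Ranger 2.0.2, R 3.4.1 and build mm10. The deposited log2 table of the authors holds 9571 genes in 7231 cells, and its values equal log2(count / cell factor + 1) to a relative deviation of 1.1e-14, with factors of 0.168 to 5.68. How cells were filtered and placed in G1 is not described in the sources. All 8273 columns of cells carry no sample and are treated as 4 unassigned libraries by barcode suffix, with 795 to 32737 UMIs per cell.

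CPM of summed cells were compared by a Mantel-Haenszel ratio over libraries with a Greenland-Robins 95% interval and a prior of 0.5 UMI. Interval and share errors cover counting error only. Genes needed 200 UMIs, 1.5-fold, an interval off 0 and 1 direction in libraries with at least 20 cells on each side. The scripts were tested on simulated data. Alternatives were depth strata, thinning, other thresholds, scalings and UMI minimums, the deposited log2 values, and leaving out a library, deep cells or, chosen after seeing the data, cells with double-positive or cell cycle transcripts. No doublet caller was run.

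The members and the 29 lists (384 genes, of which 3 were not analysed) were chosen with earlier results of these data known, and some of their genes are not reported here. Genes named are up to 12 called genes with the largest ratio each way, up to 4 genes per list with the largest ratio of either sign, the genes of the selection as a description, and a fixed set of egress, Treg and cytokine genes. Genes outside this rule that a list result turns on (Icos, Ccnd3, Ikzf1, Pim1 and the called members of short lists) were chosen after their values were seen. Symbols and positions are from GENCODE M21 (GRCm38), with 353 identifiers without a symbol. Scripts ran under Python 3.11.15 with pandas 2.3.3 for tables, scipy 1.17.1 for intervals, numpy 2.4.6 for sums and matplotlib 3.10.9 for plots.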

Additional observations from a re-analysis of the deposited data

Results flagged for a closer look

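Of 46 values with 1 figure per library that were checked, 1 had a library far from the other 3. The log2 ratio of Il7r, the IL-7 receptor alpha chain, was -0.54 in library 1 (40.5 against 59.1 CPM in selected and other cells), while in libraries 2, 3 and 4 it lay near 0. Chance alone sets apart about 1 in 20 such groups.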

How the results depend on the processing

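The numbers of genes called depend on the processing. Higher and lower calls were 195 and 340 with only Il2ra-0 cells as comparison, 71 and 271 at matched depth, 106 and 239 after thinning, 39 and 290 at 2-fold and 210 and 299 without cells with cell cycle transcripts. With each cell counted alike 233 were higher. Totals without mitochondrial and ribosomal protein genes gave 321 and 765, and median-of-ratios factors 338 and 751. Leaving out each library gave 349 to 634 higher and 512 to 736 lower. The share of selected cells was 36.1% at a threshold of 1000 CPM, 12.8% at 2000 and 26.2% after thinning, and 18.8% to 25.2% with a library left out. The Il2ra ratio was 0.633 at a threshold of 1000, 0.582 after thinning and 0.445 to 0.501 with a library left out.

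Signs turned in a few lists and genes, and the cause was not tested. The IL-2 and STAT5 median was 0.040 with only Il2ra-0 cells. The MHC class I median was -0.037 at matched depth and -0.034 in the deposited log2 values. The chemokine receptor median was -0.14 after thinning, -0.018 at a threshold of 2000, -0.054 without cells holding any double-positive UMI, -0.13 without cells with cell cycle transcripts and -0.0054 in the log2 values. With a library left out it was -0.037 (library 3) to 0.060 (library 1). Mki67 had 0.66 at matched depth and 0.54 without cells with cell cycle transcripts, where Top2a, a gene of that filter, had 0.13. Without cells with 3 or more double-positive UMIs Cd8a, a gene of that filter, had -0.22 and Ly6d -0.16, and Ly6d had -0.051 without any. Of 92 named genes called, 88 kept their direction under all 17 alternatives in CPM, and 24 were called under each. Many of these were named for large ratios in the same data, so the counts do not describe all called genes. Lists with under 4 tested genes under an alternative have no median there.

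Depth is a limit, since selection and depth go together, and 0 Il2ra UMIs in a cell of 2374 UMIs, the median, does not show that the gene is off. No paired analysis was possible because no groups of samples were compared. Selected and other cells were compared within each library throughout.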
